A study of Zea mays with 6 samples.

Results

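Runs of neighbouring loci with exactly the same span were followed in maize kernels of wild type and of the mutant dek42. Span is the length from a locus's first to its last coordinate. Loci of 200 to 30000 bases on chromosomes 1 to 10 were chained when they had equal spans and starts under 200 kilobases apart, leaving out chromosome 6 from 12 to 15 megabases, and chains of 3 or more loci were kept. This gave 29 chains holding 139 loci, out of 45736 loci in all. Of these, 8 chains with 63 loci had a summed level of at least 1 FPKM in at least 2 of the 5 libraries. These 8 are called arrays here. FPKM are fragments scaled by a length assigned to the locus, which need not be its span, and by all mapped fragments.

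RNA came from pooled kernels of maize (Zea mays) at 15 days after pollination, and the labels describe 3 libraries of each genotype. The comparison is of wild-type replicates 1 and 3 (n = 2) with replicates 1, 2 and 3 of dek42 (dek42-ref in the titles, n = 3), while the second wild-type replicate is not analysed here. The Dek42 gene product binds RNA and acts in the splicing of pre-mRNA, and the mutant belongs to the defective kernel class, in which embryo and endosperm development is impaired. The labels do not say whether replicates were separate plants. A p-value therefore reflects only spread among these libraries, in part perhaps technical. In the limma fits the spread of a row is also drawn toward that of all rows of similar level. In a kernel sample, fewer cells of a type and less RNA per cell cannot be told apart.

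Tandem gene arrays arise when a stretch of DNA is copied next to itself, often by unequal crossing over, and the copies can stay nearly identical for a long time. Maize is rich in them, and the genes of the zein seed storage proteins of the endosperm are a well-known kernel example. Short reads from near-identical copies map to several of them, so an array's summed level is firmer than the level of any one copy. The files name loci only by position in B73 RefGen_v4, so no gene name, exon or UTR annotation was given to any locus, the level of Dek42 in these libraries was not checked, and whether any array encodes zeins was not tested. Equal span and closeness do not show that loci are duplicates, and no sequences were compared. Where members of the arrays are called copies below, the word means only a member.

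The 8 arrays differed widely in level and moved in both directions. Summed FPKM fell in the 802-base and 706-base arrays of chromosome 4. It rose in the 214-base array of chromosome 3, the 305-base array of chromosome 8 and both 305-base arrays of chromosome 10 (limma adjusted p under 0.05, Benjamini-Hochberg over 20287 rows holding each array as a sum and every other tested locus singly). Against these 4 higher and 2 lower arrays, 39.2% of all rows were called higher and 2.25% lower, 41.5% either way. The 304-base array of chromosome 8 and the 364-base array of chromosome 4 did not pass. After median-ratio scaling, which brings the typical locus to the same level in every library, 3 arrays remained called higher and the same 2 lower. On that scale 7.9% of rows were called higher and 8.04% lower, 15.9% either way. Over all tested loci the median was 0.54 higher in dek42 on the log2(FPKM + 1) scale as deposited and 0.02 higher after the scaling, so the changes of array sums below are given on both scales.

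**Figure D1:**
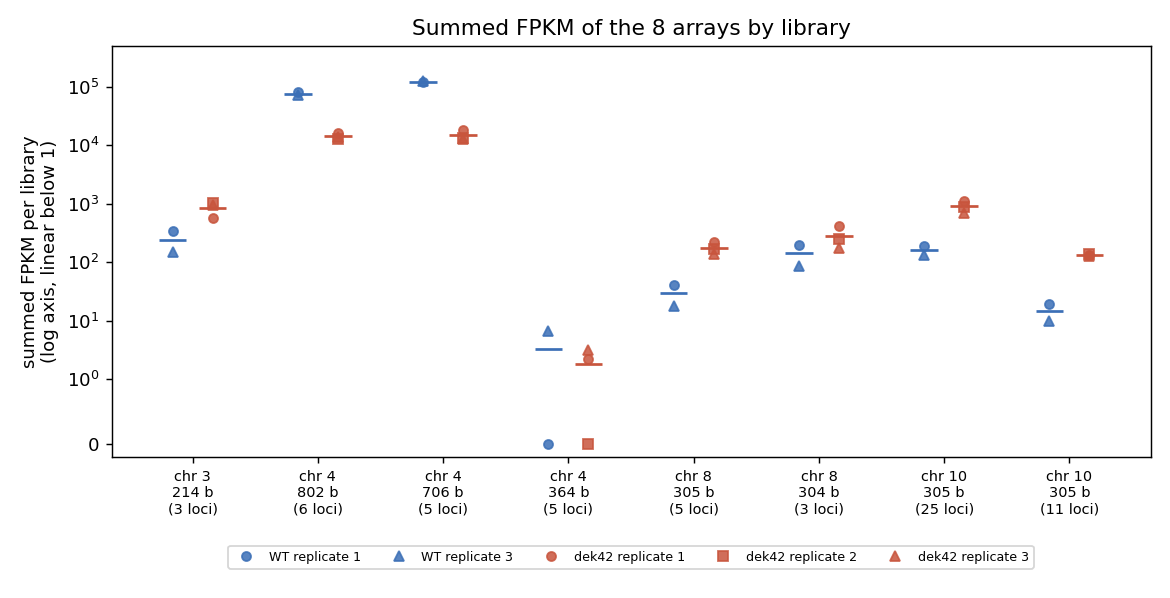
Summed FPKM of each array (log axis, linear below 1) in wild-type (blue) and dek42 (red) libraries, with horizontal lines at the group means. The 802-base and 706-base arrays of chromosome 4 lie between 71122 and 125187 FPKM in wild type and between 12590 and 18475 in dek42, while the arrays of chromosomes 3 and 10 and the 305-base array of chromosome 8 lie higher in every dek42 library than in both wild-type libraries.

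Almost all of the signal came from the pair of falling arrays. Of all FPKM, the 8 arrays held 15.4% and 17.5% in the wild-type libraries, and 2.52%, 1.91% and 2.31% in those of dek42. Wild type averaged 16.5% ± 1.53 (SD, n = 2) and dek42 2.25% ± 0.31 (SD, n = 3; p = 0.1 in an exact two-sided permutation test, the smallest that the 10 splits of 5 libraries allow). For the 6 other arrays the share was 0.0479% ± 0.0174 in wild type against 0.167% ± 0.000701 in dek42 (p = 0.1, same exact permutation test). These 6 are what is left once the falling arrays are taken out, so this p is no support for a direction.

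Of the 63 member loci, 48 had at least 1 FPKM in at least 2 libraries and were tested, against 44.4% of all loci. Of the other 15, 9 are listed at 0 in every library. The arrays were kept because their sums reached the same level, so the rule itself favours a larger tested share than among all loci. Tested singly among 20327 loci, 26 members were higher and 10 lower in dek42, where 39.2% and 2.29% of all tested loci were called, 41.5% either way (limma, Benjamini-Hochberg adjusted p under 0.05). After median-ratio scaling 14 were higher and 11 lower, where 7.85% and 7.99% of all tested loci were called, 15.8% either way. Of the 48 tested members, 8 passed the filter with both wild-type libraries under 1 FPKM, that is through dek42 alone. They include 4 of the 26 called higher as deposited and 3 of the 14 after scaling. Since such loci were kept because they are high in dek42, the counts describe the members and are no support for a direction. The median log2 change was 1.56 over the tested members and 0.54 over all tested loci as deposited, and 1.19 and 0.02 after scaling. The member median takes in 19 and 6 loci of the chromosome 10 arrays, and 9 tested members have values equal to another's. It also takes in the 8 that passed through dek42 alone, so it too is no support for a direction. In 29 members every dek42 library lay above both wild-type libraries and in 11 every one lay below, patterns that 60.9% and 5.54% of all tested loci showed.

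**Figure D2:**
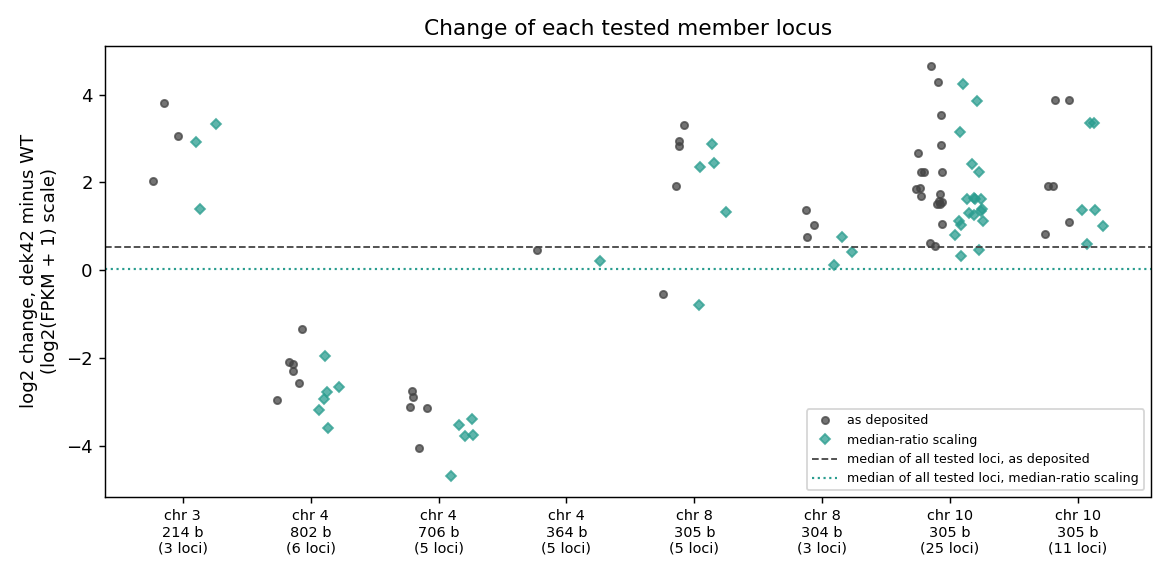
Log2 change (dek42 minus wild type, on the log2(FPKM + 1) scale) of each of the 48 tested member loci, by array, as deposited (circles) and after median-ratio scaling (diamonds). The dashed and dotted lines mark the medians of all tested loci, 0.54 and 0.02, and every tested locus of the 802-base and 706-base arrays lies below 0 on both scales.

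The 706-base array of chromosome 4 was the most abundant. Its 5 loci lie in 25.8 kilobases from 6333302 to 6359146, with starts 4439 to 11798 bases apart and no other listed locus among them. Its sum came to 119071 and 125187 FPKM in the wild-type libraries and to 18475, 13155 and 12777 FPKM in dek42. Every dek42 library was thus far below both wild-type libraries. The sum was 8.25-fold lower in dek42 as deposited (limma log2 change -3.06, SE 0.66, adjusted p = 0.013) and 12.7-fold lower after median-ratio scaling (log2 change -3.70, SE 0.83, limma adjusted p = 0.032). The call on the sum was lost without dek42 replicate 2 (limma adjusted p = 0.093) or 3 (0.095), after quantile normalization (0.073) and without a filter on low values (0.26). Without the filter the log2 change of the sum was again -3.06, and only the other rows tested differed. The adjusted p thus depends also on those rows. The log2 change of the sum as deposited stayed between -3.24 and -2.97 when 1 library was left out.

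Copies of the 706-base array were close to one another in wild type. The first locus had 22062 and 24360 FPKM in wild type and 3574, 2379 and 2225 in dek42, 8.51-fold lower. For the second the values were 28926 and 30468 FPKM in wild type, and 5635, 3939 and 3816 in dek42, 6.65-fold lower. The third went from 26894 and 27831 to 3912, 2722 and 2827 FPKM, and the fourth from 24373 and 25870 to 4161, 3162 and 3010 FPKM. These 4 copies fell 6.65-fold to 8.68-fold, and the fifth copy stood lowest in every library. It had 16815 and 16659 FPKM in wild type and 1193, 953 and 899 in dek42, 16.5-fold lower. All 5 loci were called lower on both scales (limma adjusted p of 0.0014 to 0.0040 as deposited).

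The fifth copy, from 6358441 to 6359146, had a lower mean share of the array in dek42. Its share of the array's sum averaged 13.7% ± 0.576 (SD) over the 2 wild-type libraries and 6.91% ± 0.410 over the 3 of dek42. The second copy held 24.3% ± 0.0314 in wild type and 30.1% ± 0.348 in dek42. Set against the mean of the other tested members of its array, the fifth copy changed by -1.10 on the log2 scale (SE 0.14, limma adjusted p = 0.060). The second copy was 0.42 higher (SE 0.08, limma adjusted p = 0.068). Neither passed the threshold.

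**Figure D3:**
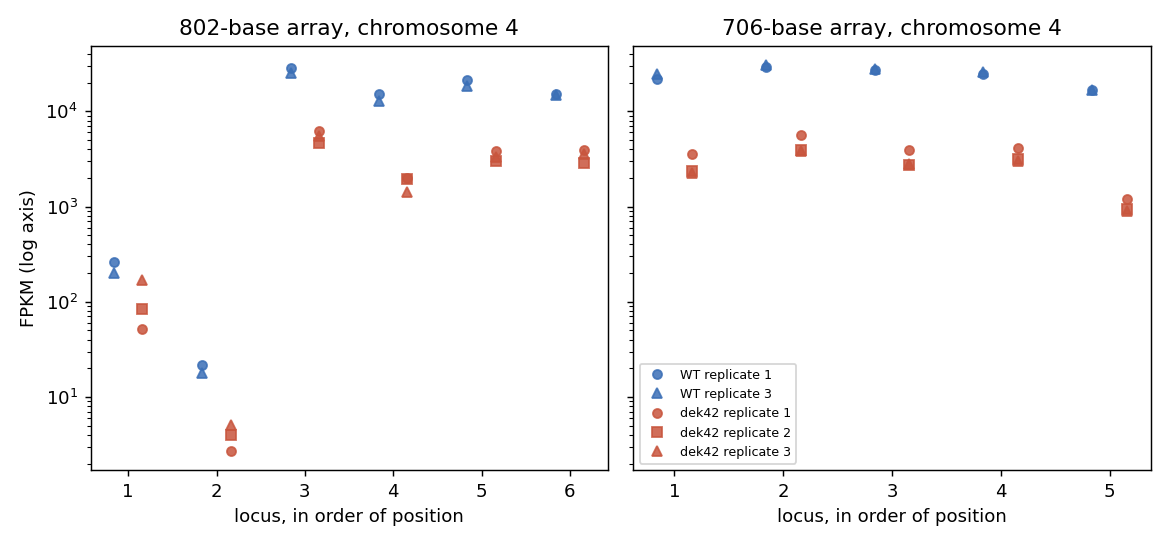
FPKM (log axis) of each locus of the 802-base and 706-base arrays of chromosome 4, in order of position, in wild-type (blue) and dek42 (red) libraries. Every locus is lower in all 3 dek42 libraries than in both wild-type libraries, and the first and second loci of the 802-base array lie well under the other 4.

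The 802-base array, on chromosome 4 from 5835516 to 5940653, held 6 loci whose starts lay 11021 to 34192 bases apart. Summed FPKM was 80490 and 71122 in wild type and 15996, 12590 and 13917 in dek42, with no overlap between the genotypes. The sum was 5.35-fold lower as deposited (limma log2 change -2.42, SE 0.59, adjusted p = 0.019) and 8.26-fold lower after scaling (log2 change -3.06, SE 0.75, limma adjusted p = 0.040). The call was lost without dek42 replicate 1 (limma adjusted p = 0.071), 2 (0.12) or 3 (0.11), after quantile normalization (0.11) and without a filter on low values (0.29). Without the filter the log2 change was again -2.42, and only the other rows tested differed. The log2 change of this sum as deposited stayed between -2.51 and -2.33 when 1 library was left out.

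Copies of this array differed widely in abundance. Nearly all of the signal came from the third to sixth loci. The third had 28482 and 24975 FPKM in wild type and 6170, 4664 and 5486 in dek42, 4.91-fold lower. The fourth went from 15147 and 12732 to 2012, 1961 and 1433 FPKM, the steepest fall of the array at 7.74-fold. The fifth and sixth were 5.86-fold and 4.38-fold lower. These 4 loci were called lower on both scales (limma adjusted p of 0.0019 to 0.0065 as deposited), although quantile normalization ended the call of the third (0.071) and sixth (0.053) and testing without a filter that of the third (0.072).

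The first and second copies of the same array were far weaker. The second locus, from 5846537 to 5847338, had 21.4 and 17.8 FPKM in wild type and 2.71, 4.02 and 5.06 in dek42, 4.98-fold lower (limma adjusted p = 0.0026, and 0.0041 after scaling). The first, from 5835516 to 5836317, had 261 and 202 FPKM in wild type, and 52.2, 82.9 and 171 in dek42. All dek42 values were below both wild-type values, and replicate 3 was the nearest to them. As deposited it did not pass (log2 change -1.33, SE 0.45, limma adjusted p = 0.052), and after median-ratio scaling it was called lower (log2 change -1.96, limma adjusted p = 0.030). It also passed as deposited without dek42 replicate 3 (limma adjusted p = 0.014).

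For the short spans, the number of fragments behind a value could be read from the files. At one span and in one library, a fragment is worth a fixed FPKM, and all 140 values above 0 at loci of 214, 304, 305 and 364 bases, members and other loci alike but without the chromosome 10 arrays, were whole multiples of one step per span and library (within 0.05 of a fragment, with a largest deviation of 0.00021). One fragment was worth 0.976 to 1.4 FPKM at 305 bases, and 7.04 to 12.5 FPKM at 214 bases. In wild-type replicate 1 the steps at these spans were 1.4 and 12.5 FPKM, and in dek42 replicate 3 they were 1.0 and 7.04. The step was thus not in proportion to the span, and its dependence on span differed by library. Levels at 214 bases depend on the length used for scaling, which the sources used here do not give. A listed 0 means that no fragment was counted or that the estimate failed. As a one-sided limit, a count of 0 at 305 bases allows a level of up to 3 fragments, or 2.93 to 4.2 FPKM depending on the library. Intervals below are exact 95% Poisson intervals and cover counting error only.

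In the chromosome 10 arrays most single values were not whole, while the array sums were. Of 118 member values above 0, 92 fell between whole numbers of fragments, yet 9 of the 10 array sums were whole within 0.05 of a fragment. The exception was the 11-locus array in dek42 replicate 3, at 128.333 fragments. These loci and sums were not used to find the step. The sources used here do not say how fragments that map to several copies were divided.

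The long array of chromosome 10 had 25 loci of 305 bases from 3675250 to 3796744. Of the 24 distances between successive starts, 17 lay between 1862 and 1872 bases, and the first locus stood 65944 bases before the next. Between the members starting at 3771117 and 3776723 lie a pair of loci of 304 bases, from 3772987 to 3773290 and from 3774855 to 3775158, both listed at 0 in every library. A locus of 14202 bases, from 3776615 to 3790816, overlaps 4 members. It is listed at 1.06 FPKM in wild-type replicate 3 but at no more than 2.5e-06 FPKM in any other library. How reads were shared with these members is uncertain, and may differ in wild-type replicate 3.

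Summed FPKM of the long array was 189 and 133 in wild type and 1128, 873 and 691 in dek42, above both wild-type values in each dek42 library. In fragments, these sums were 135 and 136 in wild type and 1016, 690 and 689 in dek42. The Poisson intervals were 158 to 224 and 111 to 157 FPKM in wild type, and the lowest dek42 library reached from 640 to 744 FPKM. The array was 5.58-fold higher in dek42 as deposited (limma log2 change 2.47, SE 0.26, adjusted p = 0.0019) and 3.63-fold higher after scaling (log2 change 1.83, SE 0.29, limma adjusted p = 0.014). Of its 19 tested loci, 17 were called higher as deposited and 11 after scaling, and none lower, beside 39.2% and 7.85% of all tested loci called higher. Loci with equal values, described next, are not separate calls. The calls also include 4 loci as deposited and 3 after scaling that passed the filter through dek42 alone. The counts are therefore no support for a direction.

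**Figure D4:**
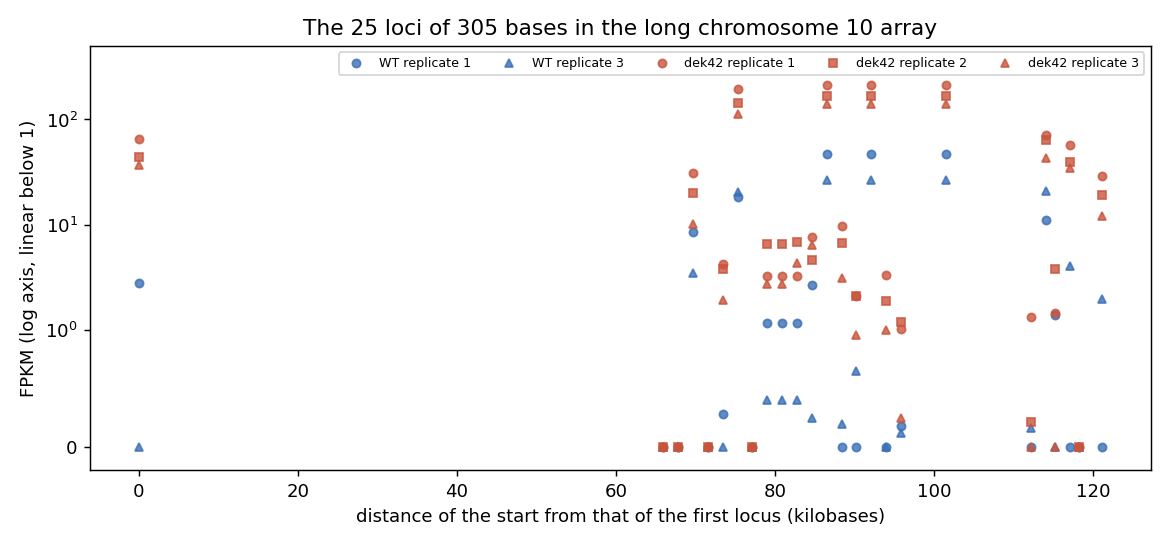
FPKM (log axis, linear below 1) of the 25 loci of the long chromosome 10 array against the distance of each start from that of the first locus, in wild-type (blue) and dek42 (red) libraries. In each library 3 loci at the same height carry equal values, and 5 loci lie at 0 in all libraries.

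Most of the long array's signal sat on 3 copies with identical values. The loci starting at 3761779, 3767380 and 3776723 each had 46.8 and 26.5 FPKM in wild type and 213, 167 and 140 in dek42. Together they held 67.0% ± 10.2 (SD) of the array's sum over the 2 wild-type libraries and 58.2% ± 2.1 over the 3 of dek42. Each was assigned 33.41 and 27.11 fragments in wild type and 192.1, 131.68 and 139.16 in dek42, and each was called higher on both scales (limma adjusted p = 0.0028 as deposited and 0.020 after scaling). A further pair, starting at 3754307 and 3756176, also had equal values, of 0.401 to 6.55 FPKM. At the other end, the loci starting at 3741194, 3743096, 3746837, 3752440 and 3793492 are listed at 0 in every library.

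Other loci of the long array are named here after their values were seen. The first and most distant one, from 3675250 to 3675554, had 2.8 and 0 FPKM in wild type and 65.5, 44.3 and 37.1 in dek42, or 2 and 0 fragments against 59, 35 and 37. It was called higher (limma log2 change 4.64, SE 0.54, adjusted p = 0.0024, and 0.012 after scaling), with a log2 change of 5.60 without wild-type replicate 1 and 3.68 without wild-type replicate 3. Against the other members it stood 2.36 higher (SE 0.49, limma adjusted p = 0.068). The last, from 3796440 to 3796744, had 0 and 1.95 FPKM in wild type and 28.9, 19.0 and 12 in dek42, or 0 and 2 fragments against 26, 15 and 12 (limma log2 change 3.53, adjusted p = 0.0042, and 0.021 after scaling). Its log2 change was 2.75 without wild-type replicate 1 and 4.31 without wild-type replicate 3. The locus starting at 3792381 had 0 and 4.07 FPKM in wild type and 57.8, 39.1 and 34.3 in dek42 (limma log2 change 4.28, adjusted p = 0.0043, and 0.021 after scaling), with a log2 change of 3.11 without wild-type replicate 1 and 5.45 without wild-type replicate 3. In these 3 loci the wild-type level rested on few fragments, so neither a fold nor an order among them is given. The locus starting at 3750573 had 18.2 and 20.6 FPKM in wild type and 193, 143 and 112 in dek42, 7.70-fold higher (limma adjusted p = 0.0014, and 0.0078 after scaling).

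A second array of 305-base loci on chromosome 10, far from the first, had 11 loci from 107315734 to 107433942. It is laid out as a repeated block. The fourth to seventh loci reappear as the eighth to eleventh, at a distance of 17280 or 17281 bases, and each locus has exactly the values of its counterpart in all 5 libraries. The fourth and eighth loci each had 2.1 and 1.87 FPKM in wild type and 38.6, 42 and 47.3 in dek42. For the fifth and ninth the values were 7.70 and 2.68 FPKM in wild type and 25.3, 24.0 and 14.0 in dek42. The other 2 pairs are listed at 0 in every library but dek42 replicate 3, where each locus had 1.00 FPKM in one pair and 1.17 in the other. Of the remaining loci, the first is listed at 0 in every library, while the second and the third reached at most 3.33 and 3.38 FPKM and were not called.

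The sum of this array was 19.6 and 9.76 FPKM in wild type and 131, 137 and 129 in dek42, a wide gap between genotypes. Behind it were 14 and 10 fragments in wild type, with Poisson intervals of 10.7 to 32.9 and 4.68 to 18.0 FPKM, and 118, 108 and 128 in dek42. The array was 9.0-fold higher in dek42 as deposited (limma log2 change 3.16, SE 0.26, adjusted p = 0.0013) and 5.83-fold higher after scaling (log2 change 2.55, SE 0.26, limma adjusted p = 0.0058). It had the smallest adjusted p of the 8 arrays on both scales.

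Changes of the copies are given here side by side. The fourth and eighth loci, each assigned only 1.5 and 1.92 fragments in wild type but 34.75, 33.17 and 47.17 in dek42, were higher by 3.87 on the log2 scale (SE 0.16, limma adjusted p = 0.00034). The fifth and ninth were 4.07-fold higher (log2 change 1.92, SE 0.41, limma adjusted p = 0.012), and their log2 change was 2.54 without wild-type replicate 1 and 1.30 without wild-type replicate 3. After scaling the first pair was called (limma adjusted p = 0.00077) and the second was not (0.072). The first pair held 29.9% ± 12 of the array's sum in wild type and 64.6% ± 7.81 in dek42, and the second 66.8% ± 16.7 and 31.9% ± 8.85. Against the other members, the fourth and eighth loci were each 1.42 higher on the log2 scale (SE 0.29, limma adjusted p = 0.068) and the fifth and ninth stood at -1.08 (SE 0.38, limma adjusted p = 0.19), and neither passed. In wild type these shares rest on 14 and 10 fragments.

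**Figure D5:**
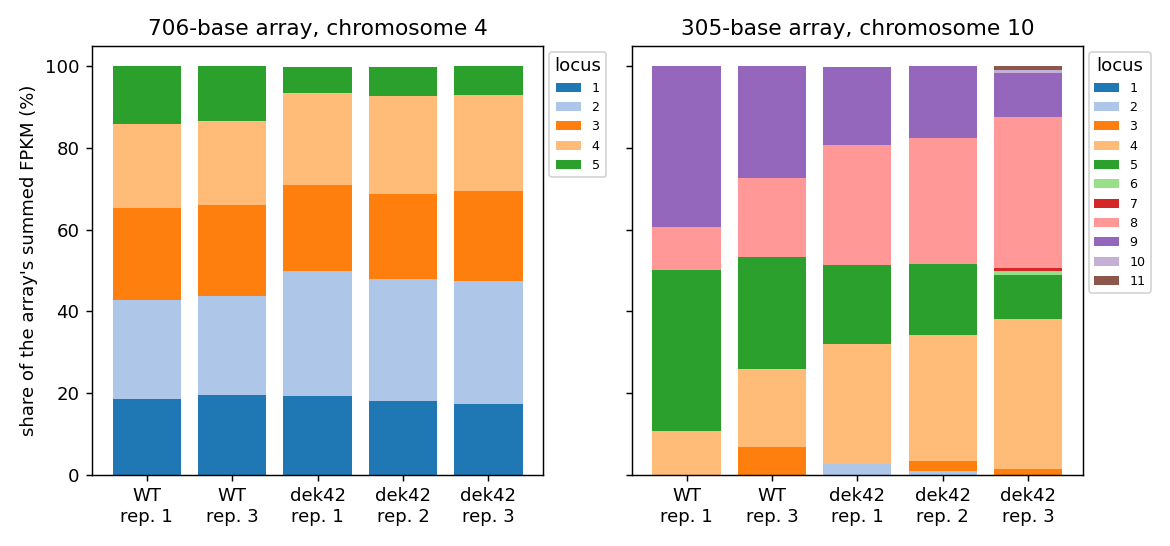
Share of the array's summed FPKM held by each locus, numbered by position, in every library, for the 706-base array of chromosome 4 and the 11-locus 305-base array of chromosome 10. The fifth locus of the 706-base array averages 13.7% in wild type and 6.91% in dek42, and loci 4 and 8 of the chromosome 10 array together average 29.9% and 64.6%.

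Over all arrays, whether single members departed from the rest of their own array was tested for 47 loci. None passed (limma, 0 called, or 0.0%), the lowest adjusted p was 0.060, and 10 loci had an unadjusted p under 0.05. The count depended on the wild-type libraries. Without wild-type replicate 3 it was 9 and without wild-type replicate 1 it was 1. Loci with equal values are not independent in this test. Since 1 FPKM is added before logs are taken, a member near 0 can depart with little change of share. The locus starting at 3771117 on chromosome 10 stood at -1.72 (limma unadjusted p = 0.0087). Its mean share was 0.0923% in wild type and 0.0883% in dek42.

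Equal values were common among members. Of the 54 members above 0 in any library, 13 (24.1%) had the values of another member in all 5 libraries, in 6 groups, all in the chromosome 10 arrays. Among all 31531 loci above 0 in any library, 513 (1.63%) had such a partner. These are counts, given without a test.

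On chromosome 8, arrays of 305 and of 304 bases are interleaved. The 5 loci of 305 bases lie from 173033091 to 173219943, and the 3 loci of 304 bases lie between them, from 173076610 to 173130871. All values of both were whole numbers of fragments. Also among them is a chain of 4 loci of 1039 bases, starting at 173074638, whose sum did not exceed 0.204 FPKM in any library.

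The 305-base array of chromosome 8 rose. Summed FPKM was 40.6 and 17.6 in wild type and 222, 165 and 138 in dek42, or 29 and 18 fragments against 200, 130 and 138. Each dek42 library was above both wild-type libraries, and the Poisson interval of wild-type replicate 1, the higher, was 27.2 to 58.3 FPKM against 116 to 163 in dek42 replicate 3, the lowest. The sum was 6.02-fold higher as deposited (limma log2 change 2.63, SE 0.36, adjusted p = 0.0033) and 3.94-fold higher after scaling (log2 change 2.01, SE 0.37, limma adjusted p = 0.020). Without wild-type replicate 1 the log2 change as deposited was 3.22.

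Its strongest member was the last, from 173219639 to 173219943, with 11 and 6 fragments in wild type and 104, 49 and 72 in dek42. In FPKM these were 15.4 and 5.86 against 115, 62.0 and 72.2, 7.83-fold higher (limma log2 change 2.94, adjusted p = 0.0037, and 0.020 after scaling). Its log2 change was 3.57 without wild-type replicate 1 and 2.31 without wild-type replicate 3. The locus starting at 173200942 had 0 and 7 fragments against 8, 40 and 40, so that dek42 replicate 1 was close to wild-type replicate 3 (limma log2 change 3.30, adjusted p = 0.037, and 0.11 after scaling). Its call was lost without wild-type replicate 1 (limma adjusted p = 0.17) or dek42 replicate 2 (0.097) or 3 (0.090), and its log2 change ranged from 1.82 without wild-type replicate 1 to 4.79 without wild-type replicate 3, with 4.04 without dek42 replicate 1. The locus starting at 173149031 had 2 and 0 fragments against 18, 9 and 9 (limma log2 change 2.82, adjusted p = 0.011, and 0.051 after scaling), with log2 changes of 3.78 and 1.86 without wild-type replicates 1 and 3. The first locus had 11 and 5 fragments against 70, 27 and 17 and did not pass (limma adjusted p = 0.056), but did without wild-type replicate 1 (0.047) or dek42 replicate 3 (0.032). The second, starting at 173051328, had 5 and 0 fragments against 0, 5 and 0, with the genotypes fully overlapping.

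The 304-base array between them overlapped between genotypes. Its sum was 196 and 85.2 FPKM in wild type and 415, 249 and 174 in dek42, or 138 and 86 fragments against 368, 194 and 171. The value of dek42 replicate 3 lay below that of wild-type replicate 1. The limma log2 change was 1.01 (SE 0.45, adjusted p = 0.11) as deposited and 0.38 (SE 0.47, adjusted p = 0.60) after scaling. Of its 3 loci, the one starting at 173130568, with 21 and 26 fragments against 122, 47 and 47, was called higher as deposited (limma adjusted p = 0.037) and not after scaling (0.28), nor without wild-type replicate 1 (0.095), wild-type replicate 3 (0.13) or dek42 replicate 2 (0.061). The locus starting at 173076610 had 100 and 43 fragments against 144, 136 and 80, and the one starting at 173115653 had 17 and 17 against 102, 11 and 44, both with overlapping genotypes. The former passed when wild-type replicate 1 was left out (limma adjusted p = 0.042), and the latter when dek42 replicate 2 was (0.037). Without wild-type replicate 1 the array itself passed as deposited (limma adjusted p = 0.046).

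On chromosome 3, the 214-base array held 3 loci from 32101449 to 32141967. Summed FPKM was 339 and 148 in wild type and 561, 1034 and 951 in dek42. Because 1 fragment was worth so much at this span, these sums rested on 27 and 18 fragments in wild type and on 60, 94 and 135 in dek42. The Poisson intervals of wild-type replicate 1 (223 to 493 FPKM) and dek42 replicate 1 (428 to 723 FPKM) overlapped. The sum was 3.49-fold higher as deposited (limma log2 change 1.87, SE 0.41, adjusted p = 0.013) and did not pass after scaling (2.24-fold, log2 change 1.24, SE 0.38, limma adjusted p = 0.073). As deposited, its size rested on the wild-type libraries, with a log2 change of 2.47 without wild-type replicate 1 and 1.27 without wild-type replicate 3.

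The third of these loci carried most of the signal. It had 27 and 10 fragments in wild type and 48, 80 and 117 in dek42, that is 339 and 82.0 FPKM against 449, 880 and 824, 3.41-fold higher (limma log2 change 2.04, adjusted p = 0.033, and 0.13 after scaling). The log2 change was 3.05 without wild-type replicate 1 and 1.02 without wild-type replicate 3. Its call was lost without wild-type replicate 3 (limma adjusted p = 0.098) or dek42 replicate 2 (0.087) or 3 (0.080). The first had 0 and 8 fragments against 10, 14 and 14 (limma adjusted p = 0.085), and the second 0 and 0 against 2, 0 and 4 (limma adjusted p = 0.11). The first passed when wild-type replicate 3 was left out (limma adjusted p = 0.0017). The second was kept through dek42 alone, and its p supports nothing. In wild-type replicate 1 all 27 fragments lay on the third locus.

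Nearest the threshold for inclusion was the 364-base array of chromosome 4, from 47200312 to 47493253. Its sum was 0 and 6.51 FPKM in wild type and 2.2, 0 and 3.15 in dek42, or 0 and 13 fragments against 4, 0 and 6. A total of 3 of its 5 loci are listed at 0 in every library, and 9 of the 13 wild-type fragments lay on the second locus, which is listed at 0 elsewhere. The genotypes overlapped (limma log2 change -0.21, SE 0.93, adjusted p = 0.87, and -0.50, SE 0.98, adjusted p = 0.75 after scaling). Just outside the threshold was a chain of 3 loci of 895 bases on chromosome 7, from 32449866 to 32622429, with sums of 0.428 and 0.478 FPKM in wild type and 0.407, 1.35 and 0.988 in dek42. Of the 21 chains left out, 10 are listed at 0 in every library and 5 reached 1 FPKM in 1 library, the highest sum being 14.7 FPKM.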

How the data were processed

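RNA-seq libraries of pooled kernels were deposited by the authors as FPKM values per locus, one file per library, per the file headers. The submitters' processing notes list TopHat2 2.1.0, Cufflinks 2.2.1 and B73 RefGen_v4 but state neither settings nor roles. Each file listed 45764 rows, and 28 rows with duplicated names were left out. Summed FPKM was 1121968 to 1474743 per library. Read totals are not given.

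Array sums and single loci were tested with limma 3.58.1 in R 4.3.3 (lmFit, eBayes with trend, genotype as the only term) on log2(FPKM + 1), two-sided, over all rows reaching 1 FPKM in 2 or more libraries, with Benjamini-Hochberg adjustment. Members were also tested against the mean of the other tested members. Folds are ratios of mean FPKM; log2 changes understate changes of low loci. The model was tested on simulated data of 20327 loci. It recovered 90% and 100% of planted changes of 1 and 2 on the log2 scale, with 9 false calls. Noise there was normal, with the same spread for loci of the same level and no shift common to all loci. Changes were planted only at loci with a mean log2(FPKM + 1) above 2, so these rates do not cover low loci. Median-ratio scaling divides each library by its median ratio to the geometric mean over libraries. Alternatives were median-ratio and quantile scaling, other pseudocounts and filters, other chain rules, a replicate block and leaving out each library. Median-ratio factors came from all 5 libraries. The rule for naming took the 8 arrays with the highest mean sum, every locus of arrays with up to 8 loci, and the highest, lowest and departing loci of longer ones. Members and lists were chosen with earlier results of these data known. No sequence is shown, since no genome of the files' build was used here.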

Additional observations from a re-analysis of the deposited data

How the results depend on the processing

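Directions held more often than calls. Of 2 arrays lower as deposited, quantile normalization and testing without a filter on low values each left 0, and a replicate block left 1. Leaving out 1 library gave 4 to 5 higher and 0 to 2 lower arrays as deposited, and 2 to 4 higher and 0 to 1 lower on the median-ratio scale. The 26 higher member loci became 14 after median-ratio scaling and 12 after quantile normalization, while 9 to 11 were lower under every alternative run. Departing members numbered 0 to 9 when 1 library was left out and 0 under the other alternatives. The difference in percent of summed FPKM stayed between -15.3 and -13.1 without 1 library.

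Direction reversed for the 364-base array (log2 change -0.21), at 0.16 with a pseudocount of 0.1, 0.41 with the replicate block and -1.67 to 1.24 without 1 library. It also reversed for 4 loci that were not called. These were 47200312 on chromosome 4 (-0.04 after quantile normalization, -0.34 without wild-type replicate 1), 173076610 on chromosome 8 (-0.1 to 1.61 without 1 library), and 3771117 (-0.0043 after quantile normalization) and 3790515 (-0.08 to 1.18 without 1 library) on chromosome 10. The causes were not tested. Wild type and dek42 share only replicate numbers 1 and 3. Deviations of the libraries with equal numbers correlated at r of 0.01 and -0.01. With only 2 wild-type libraries such values are mirror images and not separate checks. They cannot show whether libraries of equal number share a plant or a batch. With the block, 5 arrays were higher, the 304-base array among them (adjusted p = 0.020), and the 802-base array was not called (0.070). Where 1 wild-type library was left out, the other was assumed to vary like dek42. Low fragment numbers limit the 214-base and 364-base arrays.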

Other observations

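Other loci lying inside the 802-base array of chromosome 4 were also lower in dek42. Of 5 such loci, 3 were tested and all 3 were called (limma, adjusted over all loci), beside 2.29% of all tested loci called lower. The most abundant, 805 bases long from 5897750 to 5898554, had 11954 and 11526 FPKM in wild type and 1348, 1319 and 993 in dek42 (log2 change -3.28, limma adjusted p = 0.0014). One of 400 bases, from 5850647 to 5851046, had 2805 and 1234 FPKM against 712, 513 and 609 (log2 change -1.62, limma adjusted p = 0.015). One of 541 bases, from 5880092 to 5880632, had 962 and 792 FPKM against 352, 243 and 237 (log2 change -1.68, limma adjusted p = 0.0033). All 3 were also called after median-ratio scaling, where 7.99% of all tested loci were called lower.

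Loci with the same spans also lie outside the arrays. Over all tested loci, 39.2% were called higher and 2.29% lower as deposited, and 7.85% and 7.99% after median-ratio scaling. Of 24 other loci of 802 bases, 6 were tested, with 3 called higher and 0 lower as deposited and 1 and 0 after scaling. Of 9 other loci of 305 bases, 4 were tested, with 1 higher and 1 lower, and 0 and 1 after scaling. For 364 bases 3 of 9 tested were higher (1 after scaling), and for 214 bases 1 of 3 was higher (1 higher and 1 lower after scaling). For 304 bases 0 of 6 and for 706 bases 0 of 1 were called on either scale. The lower one, on chromosome 2 from 184488714 to 184489018, had 120 and 47.8 FPKM in wild type and 9.99, 12.7 and 0 in dek42 (log2 change -3.86, limma adjusted p = 0.031, and 0.038 after scaling). Some loci called higher had passed the filter through dek42 alone. On chromosome 6 these start at 46086181 (214 bases), 54286904 (802 bases) and 74376264 (364 bases). On chromosome 3 one starts at 222918559 (364 bases), the only 364-base locus called after scaling. These counts are therefore no support for a direction. The difference between the loci outside the arrays and the arrays was not tested.

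Inside the 11-locus array of chromosome 10, a locus of 277 bases from 107323082 to 107323358 had 0 FPKM listed for either wild-type library and 8.91, 70.3 and 15.9 FPKM in dek42. It passed the filter through dek42 alone, so no test is given.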
